A study of Mus musculus with 217 samples.

Results

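The transcriptional change that remained in the striatum of 12-month-old LacQ140_2M mice was measured against WT mice that never received IPTG. The comparison held 19 of the 217 RNA-Seq libraries analysed, 10 from LacQ140_2M mice (5 female, 5 male) and 9 from WT mice (4 female, 5 male), chosen by tissue, age and treatment label. LacQ140_2M mice carried 1 *Htt* allele with an expanded CAG repeat (labelled Hdh(LacO-140Q/+)) whose promoter holds *lac* operator sites. They received IPTG from embryonic day 5 to 2 months of age and none in the following 10 months. WT mice (labelled Hdh(LacO-+/+)) and all other groups also carried the beta-actin-LacIR transgene, which expresses the Lac repressor under a beta-actin promoter, on a C57BL/6 background. Without IPTG the repressor lowers expression of the mutant allele in part, and the drug releases it. Groups read beside these were LacQ140 (IPTG throughout, m*Htt* expressed, 9 mice), LacQ140_A (never IPTG, 10 mice), LacQ140_8M (IPTG to 8 months, 9 mice) and WT + IPTG (10 mice). Striatum of LacQ140_2M, WT, LacQ140 and WT + IPTG mice at 6 months of age (10 each, a separate labelled batch) and cortex of LacQ140_2M and WT mice at 12 months (10 each) were used for later comparisons.

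Huntington's disease is caused by an expanded CAG repeat in the huntingtin gene, and its earliest and heaviest damage falls on the striatum. Most striatal neurons are spiny projection neurons, which fall into a direct pathway marked by the dopamine receptor *Drd1* and an indirect pathway marked by *Drd2*. Mice with the expanded repeat lose the expression of many genes that give these neurons their identity, and they turn on genes that are normally silent in the adult striatum, well before neurons die. In bulk tissue, fewer cells of a type and less RNA per cell cannot be told apart.

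Summed expected counts ranged from 33292057 to 47625751 per library, and 19 of 19 libraries matched their labelled sex. Summed levels of 9 indirect-pathway genes were 2786 to 3241 CPM (counts scaled to the TMM-adjusted library size) in WT striatum and 77.7 to 188 CPM in WT cortex of the same age, whereas 12 cortical projection neuron markers summed to a median of 188 CPM in WT striatum and to 874 to 1642 CPM in WT cortex. One LacQ140_2M library, female 4 (F4), stood apart. Its summed indirect-pathway level was 1260 CPM against 1697 to 2076 CPM in the other LacQ140_2M mice, its summed direct-pathway level was 685 CPM against 812 to 949 CPM, and its cortical marker level was 257 CPM against 194 to 241 CPM, which was still below that of the highest WT striatum library. Counts of the comparison with WT, of its gene lists and of the tests against LacQ140 and between sexes are therefore also given without F4 where they differ.

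The targeted gene was examined first. *Htt* (ENSMUSG00000029104, GRCm38 chr5:34761740-34912534, plus strand) was measured at 118, 137 and 149.9 CPM (lowest, median and highest of 9) in WT and at 85.1, 101 and 119 CPM in 10 LacQ140_2M mice. All but 1 LacQ140_2M library lay below the lowest WT library, and the fitted log2 fold change was -0.42 ± 0.069 (SE; adjusted p = 1e-05, edgeR's quasi-likelihood test with Benjamini-Hochberg adjustment over all genes, as for every adjusted p below). Counts from the WT and the mutant allele are summed in this value. The mean *Htt* level was 93.4 ± 15.9 CPM (SD) in LacQ140_A, 100.3 ± 11.1 in LacQ140_2M, 110.9 ± 8.15 in LacQ140_8M, 111 ± 10.9 in LacQ140 and 133.9 ± 12.0 in WT. LacQ140_2M and LacQ140 did not pass the test for *Htt* (log2 fold change -0.15 ± 0.069, adjusted p = 0.56).

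Of 35386 genes with at least 1 count, 1446 (4.09%) were called between LacQ140_2M and WT, a call being an adjusted p under 0.05 with a change of at least 1.2-fold. Higher levels in LacQ140_2M were found for 691 genes (1.95% of those tested) and lower levels for 755 (2.13%). The median change of the called genes was 1.38-fold. Without F4 the comparison called 1258 genes, 610 higher and 648 lower. Against WT + IPTG in place of WT it called 2274 genes, 1129 higher and 1145 lower. Between WT + IPTG and WT themselves 77 genes (0.218%) were called, of which 12 were among the 1446.

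The striatal genes the study named were read next. *Scn4b* encodes a sodium channel beta subunit that is rich in the striatum, and was measured at 1495, 1769 and 1853 CPM in WT and at 777, 969 and 1054 CPM in LacQ140_2M. The groups did not overlap, and the log2 fold change was -0.85 ± 0.062 (adjusted p = 4.3e-17). *Penk*, the enkephalin precursor of indirect-pathway neurons, was measured at 1819.5 to 2233 CPM in WT (median 1848) and at 668 to 1253 CPM in LacQ140_2M (median 1032). Every LacQ140_2M mouse lay below every WT mouse, with a log2 fold change of -0.91 ± 0.074 (adjusted p = 4e-15). *Pde10a*, the phosphodiesterase of spiny neurons that breaks down cAMP and cGMP, fell from a WT range of 1174 to 1596 CPM (median 1385) to 658 to 986 CPM (median 846), a log2 fold change of -0.69 ± 0.087 (adjusted p = 1.5e-08).

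**Figure D1:**
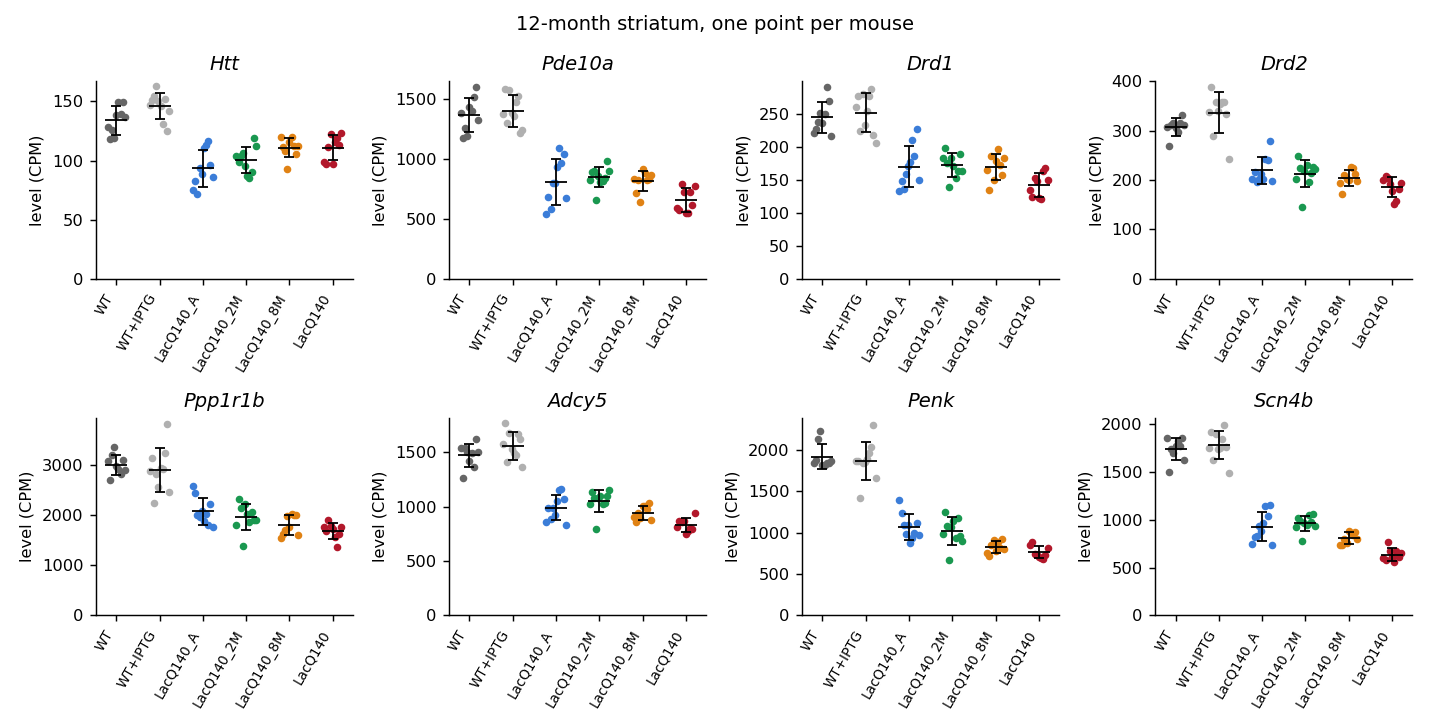
Level in CPM (y axis, from 0) of *Htt* and 7 striatal genes in 12-month striatum for the 6 groups (x axis), with 1 point per mouse and bars giving mean ± SD. For the 7 striatal genes every LacQ140_2M mouse lies below every WT mouse, and for *Scn4b* the LacQ140_2M range of 777 to 1054 CPM sits above the LacQ140 range of 555 to 767 CPM.

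The dopamine receptors moved in the same direction. *Drd1* ranged from 216 to 291 CPM in WT (median 238) and from 139 to 199 CPM in LacQ140_2M (median 173), and *Drd2* from 269 to 332 CPM (median 311.2) and from 146 to 247.5 CPM (median 220.8). The log2 fold changes were -0.51 ± 0.078 (adjusted p = 2.2e-06) and -0.53 ± 0.069 (adjusted p = 3.3e-08), and neither gene's groups overlapped. *Ppp1r1b* (DARPP-32, the phosphatase inhibitor downstream of both receptors) ranged from 2701 to 3368 CPM in WT and from 1380.0 to 2328 CPM in LacQ140_2M. *Adcy5*, the main adenylyl cyclase of the striatum, ranged from 1265 to 1619 CPM and from 792 to 1156 CPM. Both fell without overlap, by 0.62 and 0.49 on the log2 scale (SE 0.072 and 0.055). F4 was the lowest LacQ140_2M library for all 7 striatal genes the study named and for the adenosine receptor gene *Adora2a*. Without it the log2 fold changes were -0.48 for *Drd1*, -0.48 for *Drd2*, -0.57 for *Ppp1r1b*, -0.44 for *Adcy5*, -0.65 for *Pde10a*, -0.86 for *Penk*, -0.82 for *Scn4b* and -0.54 for *Adora2a*, and these genes were still called.

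Across the 28 listed genes of striatal cAMP and calcium signalling, 19 fell, 0 rose and 9 did not pass the test, and 19 fell without F4 as well. The median log2 fold change of the list was -0.43, against 0.01 for all genes at 1 CPM or more. For 16 of the 19 the groups did not overlap, against 241 fallen genes (0.681%) of all those tested. The largest decrease was that of the calcium release channel gene *Ryr1* (-1.18 ± 0.119), followed by *Rgs14*, which encodes a regulator of G protein signalling (-0.81 ± 0.079), and *Arpp21* (-0.72 ± 0.06), which encodes a cAMP-regulated phosphoprotein. *Rgs14* ranged from 115.2 to 149.8 CPM in WT and from 61.5 to 81.5 CPM in LacQ140_2M. Members that did not pass included *Gnal*, the G protein alpha subunit coupled to *Drd1* (-0.17 ± 0.047, adjusted p = 0.017, under the fold bound), and *Camk2a* (-0.03 ± 0.057, adjusted p = 0.9).

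The pathway lists differed in their counts. Of 9 indirect-pathway genes tested, 5 fell (*Drd2*, *Penk*, *Adora2a*, *Gpr6* and *Upb1*) and 0 rose, with a median of -0.53 and no overlap between the groups for any of the 5. Of 10 direct-pathway genes 3 fell (*Drd1*, *Chrm4* and *Reln*) and 1 rose (*Eya1*, a transcriptional coactivator, 0.38 ± 0.076), with a median of -0.14. The direct-pathway peptide genes *Tac1* (log2 fold change 0.00 ± 0.074, adjusted p = 1) and *Pdyn* (-0.18 ± 0.074, adjusted p = 0.17) did not pass the test. Without F4, 5 indirect-pathway and 1 direct-pathway gene fell, and *Chrm4* no longer passed (-0.27, adjusted p = 0.08). The difference between the lists was not tested.

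Ion channel genes of spiny neurons fell in 10 of 28 cases (9 without F4) and rose in 1, with a median of -0.09. The fallen ones included *Kcnab1*, a potassium channel beta subunit gene (-0.47 ± 0.055), and *Kcnh4* (-0.48 ± 0.075), whereas the calcium channel subunit gene *Cacna2d1* rose (0.3 ± 0.087, adjusted p = 0.021). That call was lost with each library's slope of level on transcript length as a covariate (0.24), and without LacQ140_2M male 4 or WT female 5 (0.27 each). Of 20 transcription factors of striatal neuron identity 9 fell and 0 rose, with 4 falling when F4 was left out. *Rxrg*, a retinoid X receptor gene, ranged from 136 to 187 CPM in WT and from 75.7 to 148 CPM in LacQ140_2M (-0.53 ± 0.084), and *Meis2* from 483 to 575 CPM and from 324 to 467 CPM (-0.32 ± 0.053). *Foxp1* (-0.27 ± 0.06) and *Bcl11b* (-0.27 ± 0.063) were just past the fold bound, and *Foxp2* (-0.08 ± 0.082) and *Ikzf1* (-0.03 ± 0.069) did not pass.

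In the endocannabinoid list of 11 genes the receptor and the degrading enzyme moved apart. *Cnr1*, the CB1 receptor gene, ranged from 207 to 263.5 CPM in WT and from 104 to 157 CPM in LacQ140_2M (-0.79 ± 0.076, adjusted p = 2e-12). *Faah*, which encodes the enzyme that breaks down anandamide, was measured at 14.0 to 25.6 CPM in WT and 24.1 to 37.5 CPM in LacQ140_2M, and rose by 0.71 ± 0.091 on the log2 scale (adjusted p = 2e-08). *Gpr55* was the list's other decrease (-0.4 ± 0.124, adjusted p = 0.033), which was lost without F4 (adjusted p = 0.079). Of 20 GABA genes 1 rose and 1 fell, the latter being the receptor subunit gene *Gabrd* (-0.35 ± 0.052). Among 25 glutamate receptor genes 1 rose (*Grik4*, 0.31 ± 0.064, a call lost against WT + IPTG at 0.25) and 0 fell, whereas DESeq2 called 1 higher and 1 lower. *Penk* alone fell among 12 opioid and tachykinin genes.

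**Figure D2:**
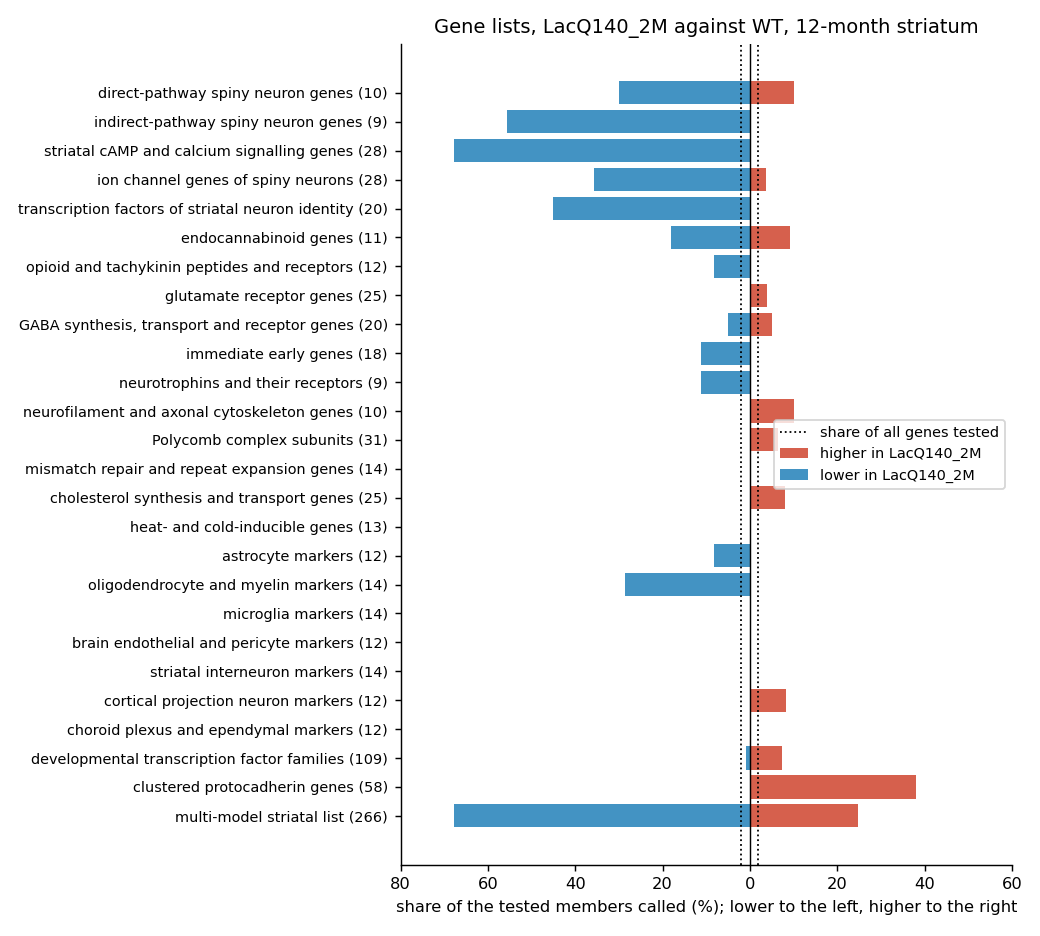
Share of each list's tested members (number tested in parentheses) that were called higher (right, red) or lower (left, blue) in LacQ140_2M than in WT, in percent, with dotted lines at the shares of all genes tested (1.95% higher, 2.13% lower). The cAMP list has 19 of 28 members lower, the protocadherin list 22 of 58 higher.

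Genes that rose included several that were near 0 in WT striatum. *Wt1*, a zinc finger transcription factor gene of kidney and gonad development, was measured at 0.024, 0.0864 and 0.175 CPM in WT and at 1.65, 2.23 and 3.76 CPM in LacQ140_2M. The log2 fold change was 4.6 ± 0.254 (adjusted p = 4e-23). The groups did not overlap, which the rule that named *Wt1* by size of change required. It passed that rule's bound of 1 CPM through LacQ140_2M (mean 2.39 CPM, against 0.0968 CPM in WT). *Onecut1*, a homeodomain factor gene, was at most 0.19 CPM in WT, with a median of 0, and ranged from 0.567 to 1.07 CPM in LacQ140_2M (4.05 ± 0.415, adjusted p = 2.8e-12). Both levels are low, and for *Onecut1* the size of the fold depends on how a level near 0 is handled. Of 109 tested genes of developmental transcription factor families 8 rose and 1 fell (*Dlx6*, -0.28 ± 0.074). The others that rose were *Hoxa7*, *Hoxc4*, *Hoxc5*, *Hoxc6*, *Nkx2-3* and *Nkx2-9*. Without F4, 6 rose and 0 fell.

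Other genes rose at a higher level of expression. *Sfmbt2*, a Polycomb-related gene, ranged from 0.848 to 1.8 CPM in WT and from 3.3 to 5.72 CPM in LacQ140_2M (1.62 ± 0.12). Of 31 Polycomb subunits 2 rose and 0 fell. Among them *Cbx8*, a chromobox subunit of Polycomb repressive complex 1, ranged from 8.03 to 12.1 CPM in WT and from 11.7 to 21.4 CPM in LacQ140_2M (0.77 ± 0.083, adjusted p = 1e-10). *Stmn2*, a tubulin-binding protein gene of growing axons, ranged from 90.7 to 113 CPM and from 127 to 167 CPM (0.47 ± 0.058). It was the 1 gene called among 10 neurofilament and axonal cytoskeleton genes.

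Clustered protocadherins, cell adhesion proteins whose isoforms are chosen by promoter in each neuron, were also read. Of 58 tested, 22 rose, 0 fell and 36 did not pass the test, with a median of 0.27, and without F4 23 rose. *Pcdhb9* reached at most 14.9 CPM in WT and ranged from 17.2 to 20.8 CPM in LacQ140_2M (0.56 ± 0.06, adjusted p = 9.5e-11), and *Pcdhb22* ranged from 6.96 to 9.09 CPM and from 10.2 to 12.6 CPM (0.52 ± 0.067, adjusted p = 1.6e-08). The groups did not overlap for 7 of the 22, these 2 among them, against 119 risen genes (0.336%) of all those tested. These genes are close copies of each other and some annotated transcripts of the cluster overlap, so how reads were shared among them is uncertain.

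Markers of other cells were read in full. Of 14 oligodendrocyte and myelin markers 4 fell, among them *Mobp*, *Cldn11* and *Mal*, and 10 did not pass, with a median of -0.02. The summed level, on which the most abundant markers weigh most, was 13706 to 16989 CPM in WT and 10710 to 13555 CPM in LacQ140_2M. *Mal*, a myelin proteolipid gene, ranged from 517 to 608 CPM and from 362.6 to 430.0 CPM (-0.49 ± 0.061), whereas *Mog* (0.02 ± 0.067) and *Cnp* (0.07 ± 0.061) did not pass. Of 12 astrocyte markers *Glul*, the glutamine synthetase gene, fell (-0.32 ± 0.054), and the list summed to 5172 to 6160 CPM in WT and to 4481 to 5929 CPM in LacQ140_2M. By edgeR 0 of 14 microglia, 0 of 12 vascular, 0 of 14 interneuron and 0 of 12 choroid plexus and ependymal markers were called, with 0, 4, 0 and 0 at an unadjusted p under 0.05 and 0 in each by DESeq2. Of 12 cortical projection neuron markers *Cux2* rose (0.49 ± 0.109, or 0.41 without F4). No marker of these lists was at 0 CPM in any of the 19 libraries. Their part in the changes above was not tested.

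The remaining lists gave few calls. Of 25 cholesterol genes 2 rose and 0 fell, among them the transporter gene *Abca1* (0.49 ± 0.122), and without F4 1 rose. Among 18 immediate early genes *Egr2* (-1.06 ± 0.321) and *Egr3* (-0.38 ± 0.117) fell, and 0 without F4 (adjusted p = 0.056 and 0.072). *Ntrk3* was the 1 decrease among 9 neurotrophin genes and receptors (-0.34 ± 0.086). By edgeR 0 of 14 mismatch repair and repeat expansion genes and 0 of 13 heat- and cold-inducible genes were called, with 3 and 1 at an unadjusted p under 0.05 and 0 in each by DESeq2.

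A list of 266 striatal genes that the study took from several earlier mouse models of the disease was read as it stands. In LacQ140_2M 66 rose, 180 fell and 20 did not pass the test, with a median of -0.45. Without F4 67 rose and 172 fell.

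The 10 fallen genes named by size of change were *Gpx6*, *Mafa*, *Slc4a11*, *Phex*, *Sec14l3*, *Tmprss6*, *Ddit4l*, *Wnt8b*, *Krt9* and *Fam83d*, and none had overlapping groups, since the rule asked for it. *Gpx6*, a glutathione peroxidase gene, was measured at 5.19, 12.3 and 15.3 CPM in WT and at 1.31, 1.91 and 3.37 CPM in LacQ140_2M (-2.47 ± 0.166, adjusted p = 6.4e-19). *Mafa*, a bZIP transcription factor gene, was at 4.51 to 6.47 CPM and at 0.804 to 1.54 CPM (-2.25 ± 0.124). *Ddit4l*, a gene for an inhibitor of mTOR signalling, was at 23.2 to 32.3 CPM and at 5.88 to 11.2 CPM (-1.62 ± 0.088). The keratin gene *Krt9* was at 41.1 to 51.9 CPM and at 13.6 to 20.8 CPM (-1.36 ± 0.083). The 10 risen genes were *Wt1*, *Dsp*, *Sfmbt2*, *Abhd1*, *Slc45a3*, *Tmc3*, *Acy3*, *Flnc*, *Cldn14* and *Tmprss5*. *Dsp*, which encodes the desmosome protein desmoplakin, was at 0.408 to 1.1 CPM in WT and at 1.89 to 5.4 CPM in LacQ140_2M (2.07 ± 0.214).

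Promoters of 4 of these genes, the 300 bases from 250 before to 50 after the annotated start, are shown because they hold few or many CG dinucleotides among genes that moved. They are printed 5′ to 3′ in lower case from RefSeq on GRCm38.p6, with each CG dinucleotide, which reads the same on both strands, in capitals. *Dsp* rose, and its promoter (chr13:38151044-38151343, plus strand) holds 27 CG. *Gpx6* (chr13:21311953-21312252, plus strand, 3 CG), *Krt9* (chr11:100193197-100193496, minus strand, 4 CG) and *Scn4b* (chr9:45138374-45138673, plus strand, 26 CG) fell.
*Dsp*: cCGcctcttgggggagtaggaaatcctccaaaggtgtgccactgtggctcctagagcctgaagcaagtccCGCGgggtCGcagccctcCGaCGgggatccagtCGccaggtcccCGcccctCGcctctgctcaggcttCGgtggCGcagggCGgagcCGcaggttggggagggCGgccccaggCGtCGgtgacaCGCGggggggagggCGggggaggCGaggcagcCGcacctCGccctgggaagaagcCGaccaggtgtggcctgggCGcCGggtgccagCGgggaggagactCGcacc
*Gpx6*: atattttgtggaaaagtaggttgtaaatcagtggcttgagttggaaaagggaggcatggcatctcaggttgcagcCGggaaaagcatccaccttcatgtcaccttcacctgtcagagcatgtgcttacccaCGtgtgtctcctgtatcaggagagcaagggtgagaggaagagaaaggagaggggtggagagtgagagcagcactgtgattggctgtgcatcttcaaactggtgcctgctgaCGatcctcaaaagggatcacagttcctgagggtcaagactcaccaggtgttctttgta
*Krt9*: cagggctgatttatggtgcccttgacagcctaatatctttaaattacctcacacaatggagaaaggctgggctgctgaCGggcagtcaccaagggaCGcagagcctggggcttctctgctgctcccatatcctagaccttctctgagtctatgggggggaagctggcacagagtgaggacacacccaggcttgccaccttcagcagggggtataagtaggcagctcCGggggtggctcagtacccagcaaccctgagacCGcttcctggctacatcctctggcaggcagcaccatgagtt
*Scn4b*: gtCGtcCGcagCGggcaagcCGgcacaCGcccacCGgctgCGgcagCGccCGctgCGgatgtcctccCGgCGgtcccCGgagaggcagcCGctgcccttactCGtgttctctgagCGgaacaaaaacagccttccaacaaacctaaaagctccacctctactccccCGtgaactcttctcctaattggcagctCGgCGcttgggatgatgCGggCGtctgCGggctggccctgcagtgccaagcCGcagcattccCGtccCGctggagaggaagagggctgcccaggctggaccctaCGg
Across the 27025 promoters of that table the median was 7 CG, with quartiles of 3 and 21, and 31.9%, 38.3%, 84.6% and 86.0% of promoters held as few CG as *Gpx6*, *Krt9*, *Scn4b* and *Dsp*. That the fallen genes shown include CG-poor and CG-rich promoters follows from how the 4 were chosen. Only 67.4% of the 1446 called genes had an entry in that table, so no comparison over the called genes was made.

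How far the change of LacQ140_2M resembled that of mice with m*Htt* expressed throughout was read over a reference from mice outside the comparison, LacQ140 against WT + IPTG, which called 3340 genes (9.44%), 1620 higher and 1720 lower. Of these, 1049 (31.4%) were also called between LacQ140_2M and WT in the same direction and 0 in the opposite direction, and they made up 72.5% of the 1446 calls. A further 237 risen and 160 fallen genes were called in LacQ140_2M and not in the reference. The sign of the change was shared by 3032 of the 3340 genes (90.8%). The ratio of the LacQ140_2M change to the reference change had a median of 0.51 (quartiles 0.27 and 0.73), with 0.5 for risen and 0.52 for fallen reference genes. Without F4, 941 genes (28.2%) were called in both, with a median ratio of 0.49. The reference genes were chosen for a large change in their own mice, which lowers such a ratio, and the ratio is given as a description with no test.

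**Figure D3:**
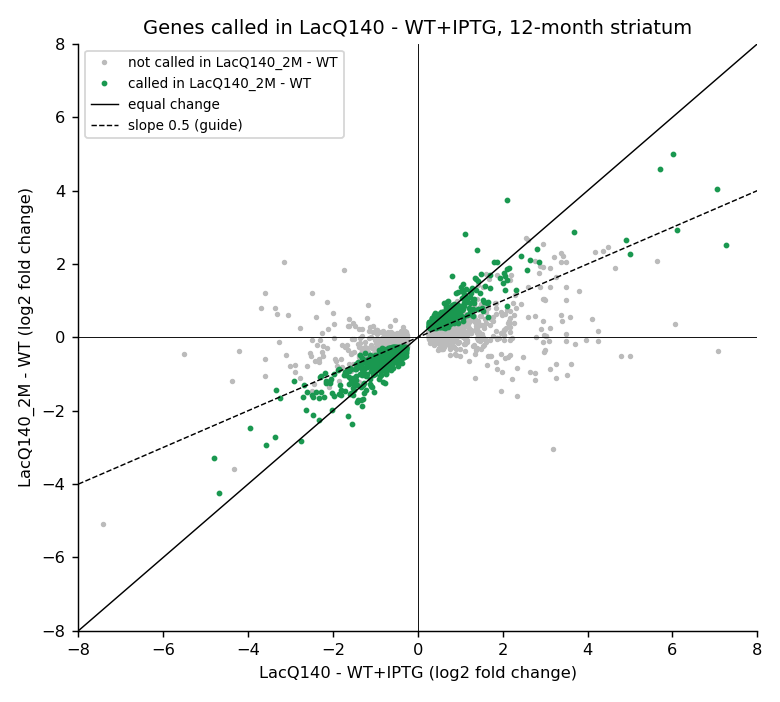
Log2 fold change of LacQ140_2M against WT (y axis) over that of LacQ140 against WT + IPTG (x axis) for the 3340 genes called in the latter, with 1 point per gene, green where LacQ140_2M against WT was also called (1049 genes, same direction). The solid line marks equal change and the dashed line a slope of 0.5, near the median ratio of 0.51.

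The same reading was taken mouse by mouse as a score, the mean log2(CPM + 0.5) of 1150 risen minus that of 1451 fallen reference genes at 1 CPM or more, set to 0 at the WT mean. LacQ140_2M mice scored from 0.403 to 0.677 (median 0.494) and WT mice from -0.099 to 0.105 (median 0.013), so the groups did not overlap. The mean was 0.44 ± 0.114 (SD) in LacQ140_A, 0.503 ± 0.085 in LacQ140_2M and 0.62 ± 0.078 in LacQ140_8M, and neighbouring groups in this order overlapped. LacQ140 and WT + IPTG mice, whose libraries chose the genes, stood at 0.747 ± 0.087 and -0.171 ± 0.113. F4 had the highest score of LacQ140_2M at 0.677, above the lowest LacQ140 mouse at 0.639, so LacQ140_2M and LacQ140 overlapped. The other 9 LacQ140_2M mice reached at most 0.56. Choosing the genes by their change in LacQ140 raises the LacQ140 scores. The gap between these 9 mice and LacQ140 is therefore a description and does not test a difference. Female and male LacQ140_2M mice scored 0.496 ± 0.11 and 0.511 ± 0.063.

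**Figure D4:**
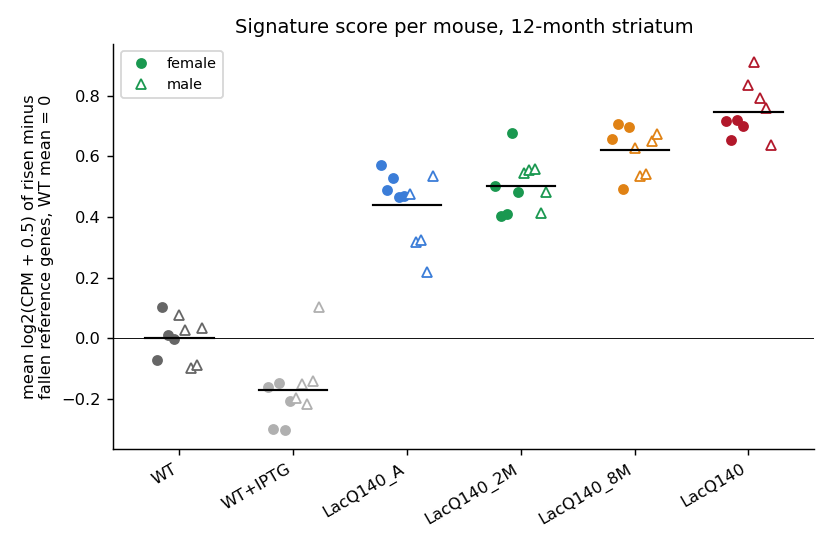
Signature score of each mouse in 12-month striatum (y axis, log2 units relative to the WT mean) by group (x axis), with filled circles for females, open triangles for males and bars at group means. LacQ140_2M mice lie between 0.403 and 0.677, above all WT mice.

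LacQ140_2M was then tested directly against LacQ140 to find genes whose level differed from full m*Htt* expression, and 215 genes (0.608%) were called, 165 higher and 50 lower in LacQ140_2M (249 without F4). Of the 7 striatal genes besides *Htt* that the study named, 4 were called (*Scn4b*, 0.6 ± 0.063, *Penk*, 0.42 ± 0.074, *Pde10a*, 0.37 ± 0.087, and *Adcy5*, 0.34 ± 0.055), each lying between its WT and LacQ140 levels. The call of *Pde10a* was lost without LacQ140_2M male 4 (log2 fold change 0.34). *Drd1* (0.27 ± 0.079, adjusted p = 0.092), *Drd2* (0.2 ± 0.069, adjusted p = 0.24) and *Ppp1r1b* (0.22 ± 0.072, adjusted p = 0.2) did not pass. *Wnt8b*, a Wnt ligand gene, showed the widest gap among named genes, with LacQ140_2M at 0.52 to 1.8 CPM, LacQ140 at 0.094 to 0.396 CPM and WT at 2.56 to 3.97 CPM. Its log2 fold change was 2.3 ± 0.269 against LacQ140 and -1.43 ± 0.168 against WT. *Wt1* and *Sfmbt2* were lower in LacQ140_2M than in LacQ140 (-0.98 ± 0.125 and -0.49 ± 0.099).

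Other named genes did not pass the test against LacQ140. Among the 10 most risen genes 8 were not called between LacQ140_2M and LacQ140. Of the 10 most fallen 3 were not called, and *Phex* (without male 3 or male 4) and *Ddit4l* (without female 1, female 2 or male 5, or with only the groups compared) lost their calls when LacQ140_2M libraries or other groups were left out. The difference between risen and fallen genes was not tested. *Tmc3* was at 7.26, 9.74 and 11.4 CPM in LacQ140_2M and at 8.54 to 11.1 CPM in LacQ140, against 2.07 to 6.22 CPM in WT. The difference from LacQ140 was 0.01 ± 0.108 on the log2 scale, and the LacQ140_A mean was 9.14 CPM. *Slc45a3* (0.01 ± 0.114), *Flnc* (0.01 ± 0.106), *Cldn14* (0.05 ± 0.12), *Acy3* (0.16 ± 0.101) and *Abhd1* (-0.1 ± 0.126) did not pass either, nor did *Tmprss5* (0.00 ± 0.117) and *Dsp* (-0.23 ± 0.166) among the risen or *Krt9* (-0.16 ± 0.083), *Mafa* (0.19 ± 0.157) and *Fam83d* (0.39 ± 0.153) among the fallen. A test that is not passed does not show these levels to be equal. *Abhd1* lies 3.9 Mb from *Htt* on chromosome 5 and overlaps *Preb* on the other strand. Within 20 Mb of *Htt* 38 of 611 tested genes were called (6.22%, against 4.09% of all genes).

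At 6 months of age, LacQ140_2M and WT striatum (10 mice each) differed in 0.936% of 35808 genes, 131 higher and 204 lower. These are different mice, so the calls of both ages can be set against each other. In the same direction 155 genes were called at both ages and 0 in opposite directions, which is 46.3% of the 6-month and 10.7% of the 12-month calls. Of the 691 genes risen at 12 months 565 (81.8%) had a positive log2 fold change at 6 months, with a median of 0.14 against 0.45 at 12 months, and of the 755 fallen genes 623 (82.5%) had a negative one, with a median of -0.16 against -0.47. Choosing genes by their 12-month call lowers the 6-month medians. Genes chosen by their 6-month call had a median change of 0.45 on the log2 scale at 6 months and of 0.33 in the same direction at 12 months. At 6 months LacQ140 differed from WT + IPTG in 2840 genes. Over these the median ratio of the LacQ140_2M change to that change was 0.26, against 0.51 over the 12-month reference at 12 months. Both ratios set a change from WT over a change from WT + IPTG.

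The difference in effect between the ages was called for 193 genes (0.556%), 54 with a higher and 139 with a lower log2 fold change at 12 months. The count was 107 with the replicate number as a block, 307 under a low-count filter, 344 by DESeq2 and 413 (173 higher, 240 lower) with the length slope as a covariate. Age, deposited table and labelled batch coincide, so they cannot be told apart, and the named genes were picked at 12 months, which enlarges their difference. *Slc4a11*, a membrane transporter gene, fell by 1.97 ± 0.119 on the log2 scale at 12 months and had a log2 fold change of -0.33 ± 0.111 at 6 months (difference -1.64, adjusted p = 7.8e-08). *Scn4b* had -0.24 ± 0.076 at 6 months (difference -0.61, adjusted p = 7e-05), and *Cbx8* had -0.06 ± 0.093 (difference 0.83, adjusted p = 0.00014). For *Wt1* the 6-month means were 0.0381 CPM in WT and 0.0748 CPM in LacQ140_2M, both near 0. Genes called at both ages included *Tmc3* (1.16 ± 0.106 at 6 months), *Acy3* (1.14 ± 0.105), *Abhd1* (1.34 ± 0.145), *Penk* (-0.39 ± 0.053) and *Gpx6* (-0.98 ± 0.148). Of these, the first 3 were not called between ages.

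**Figure D5:**
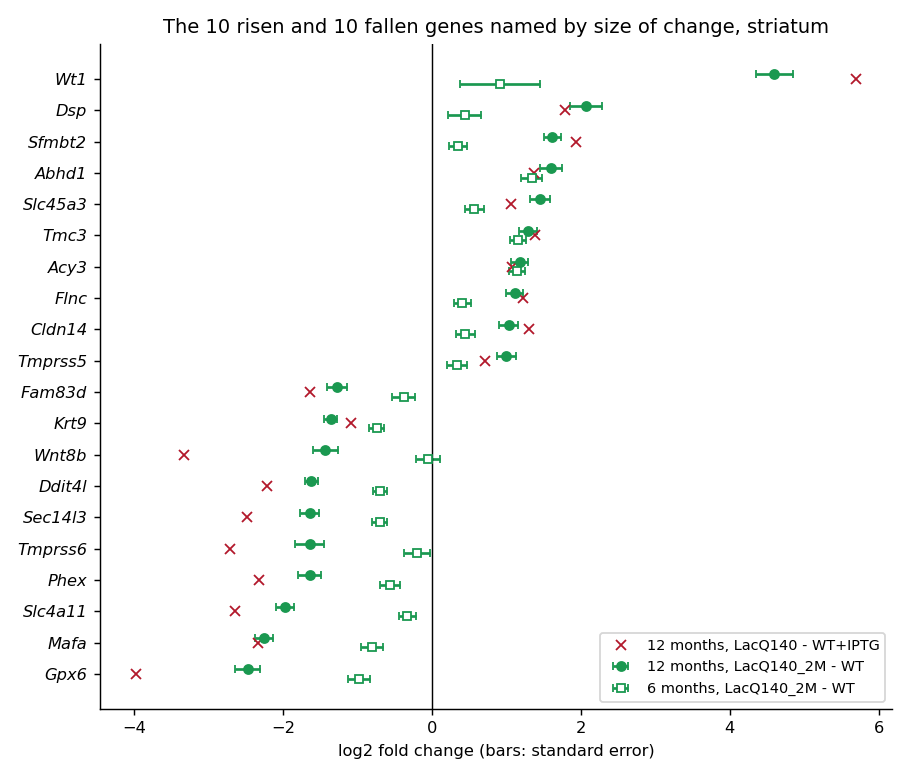
Log2 fold change (x axis) of the 10 risen and 10 fallen genes named by size (y axis), LacQ140_2M against WT at 12 months (filled circles) and 6 months (open squares) with SE bars, and LacQ140 against WT + IPTG at 12 months (crosses). *Tmc3* lies at 1.16 at 6 months and 1.29 at 12 months, whereas *Wnt8b* lies at -0.05 and -1.43.

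Females and males were compared within the 19 libraries. The difference in effect was called for 71 genes (0.22%), 55 of them with the more positive change in females. Of the 59 named genes 0 were called by edgeR or by DESeq2, and 12 had an unadjusted p under 0.05. A library measure moved with group in females. The slope of log2 CPM on log2 transcript length was -0.179 to -0.143 in WT females and -0.122 to -0.078 in LacQ140_2M females, but -0.127 to -0.098 in WT males and -0.151 to -0.081 in LacQ140_2M males. The count of 71 was unstable. It became 1 with that slope as a covariate, 147 under a low-count filter and 403 by DESeq2, and leaving out 1 library gave 0 (without WT female 3, 3278 at an unadjusted p under 0.05) to 582 (without LacQ140_2M male 4), with 153 without F4. The 12-month LacQ140_2M against WT comparison called 1511 genes with the covariate.

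In the cortex of 12-month mice 31 genes (0.0899%) were called between LacQ140_2M and WT (10 mice each), 28 higher and 3 lower. Of the 31, 11 were at 1 CPM or more, and the median change of the calls was 7.32-fold. The count was 16 when LacQ140_2M male 5 was left out. Fitted on LacQ140_2M and WT alone, 1 gene was called, and neither *Htt* nor *Cldn14* passed. In the fit over all groups 3 named genes were among the 31. *Htt* was at 28.1 ± 7.61 CPM (SD) in WT and at 17.7 ± 4.66 CPM in LacQ140_2M (-0.66 ± 0.131, adjusted p = 0.0072). *Abhd1* rose in the cortex too, from 2.07 to 3.59 CPM in WT to 4.38 to 8.37 CPM (1.27 ± 0.145), as did *Cldn14* (1.14 ± 0.184). *Gpx6* and *Wt1* did not pass there (0.4 ± 0.607 and 0.1 ± 0.329), at levels under 0.6 CPM in both groups. The cortex libraries had length slopes of -0.57 to -0.33 against -0.24 to -0.06 in striatum, and the effect of this on the count was not tested between tissues.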

How the data were processed

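Total RNA of striatum was sequenced as paired-end reads on a NovaSeq 6000. The authors deposited expected counts per gene, estimates that need not be whole (32.52% of nonzero values were not), in 1 table per age. The submitters' notes name the GRCm38 build, and the aligner, the counting tool and its strand setting are not given in the sources used here, so genes that overlap on the other strand cannot be told apart. Values were rounded to whole numbers, and genes with at least 1 count were tested with edgeR 4.0.16 (R 4.3.3, TMM normalization, quasi-likelihood F test, Benjamini-Hochberg adjustment) over all groups of a tissue and age. The SE is the log2 fold change divided by the square root of F. A call is an adjusted p under 0.05 with at least 1.2-fold change, the bounds the authors used. Levels are CPM on TMM-scaled library sizes, and median changes of lists are over genes at 1 CPM or more. The age and sex differences are interaction terms. Alternatives were DESeq2 1.42.0, a filter on low counts, other size factors, covariates, other controls and leaving out each library. The fits were tested on simulated data.

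Named genes are *Htt*, the 7 striatal genes the study names, and the 10 risen and 10 fallen genes of largest change. The risen and fallen genes had to be called, without overlap between groups, and not predicted genes. Their mean over the 19 libraries had to be at least 1 CPM, which 1 group alone can bring about. Up to 2 called members of each list in each direction by smallest p were named as well. Genes named beyond these, as members of a list, were chosen after their values were seen, and a few genes that the rule names are not reported here. Members and lists were chosen with earlier results of these data known. Mice are separate animals, and no within-group pair of libraries agreed within sampling noise (81 pairs, lowest chi-square per degree of freedom 8.02). Positions come from the GENCODE M21 annotation, which matched 54495 of 54532 genes.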

Additional observations from a re-analysis of the deposited data

Results flagged for a closer look

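In 10 of 120 groups tested, 1 mouse lay far from the others of its group (chance flags about 1 group in 20). In LacQ140_2M, F4 was the lowest library for *Adcy5* (791.8 CPM, others 1025 to 1156), *Adora2a* (190.9, others 248.3 to 308.7), *Dlx6* (24.1, others 31.5 to 38.3), *Drd2* (145.8, others 197 to 247.5), *Meis2* (324.0, others 401 to 467), *Rxrg* (75.7, others 110.1 to 148) and *Scn4b* (776.8, others 920.2 to 1054). The same library was the highest for the cortical marker *Cux2* (34.2 CPM, others 18.9 to 23.5). LacQ140_2M female 2 was high for *Gpx6* (3.37 CPM, others 1.31 to 2.41) and male 4 for *Ntrk3* (137.1 CPM, others 97.2 to 116.2).

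The effect of LacQ140_2M against WT differed between 12 and 6 months in 193 genes. Among the named genes the log2 difference, 12 minus 6 months, was positive for *Wt1* (3.7), *Dsp* (1.64), *Sfmbt2* (1.27), *Slc45a3* (0.89), *Cbx8* (0.83), *Flnc* (0.7), *Stmn2* (0.4) and *Pcdhb9* (0.32). It was negative for *Slc4a11* (-1.64), *Gpx6* (-1.48), *Mafa* (-1.44), *Tmprss6* (-1.43), *Wnt8b* (-1.38), *Phex* (-1.08), *Sec14l3* (-0.93), *Ddit4l* (-0.91), *Krt9* (-0.61) and *Scn4b* (-0.61). Further negative differences were those of *Cnr1* (-0.57), *Penk* (-0.52), *Pde10a* (-0.51), *Rgs14* (-0.51), *Arpp21* (-0.48), *Ppp1r1b* (-0.41) and *Kcnab1* (-0.37). The age calls of *Stmn2*, *Pcdhb9* and *Ppp1r1b* were among those lost with the replicate number as a block. Between females and males 71 genes differed in effect, none of them named.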

How the results depend on the processing

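The count of 1446 genes between LacQ140_2M and WT became 2274 against WT + IPTG and 2203 without a fold bound, and ranged from 1258 (without F4) to 1466 over the 19 counts that each left out 1 library. For the IPTG comparison the 77 calls became 128 by DESeq2, 150 under a low-count filter and 13 with only the groups compared. The 193 age differences became 344 by DESeq2, 307 under the filter and 413 with the length slope as a covariate. The 71 sex differences became 403, 147 and 1 in these settings, and 0 to 582 with 1 library left out. The 31 cortex calls became 14 by DESeq2, 10 under the filter, 93 with the slope, 1 with only the groups compared, and 16 to 46 with 1 library left out. Between LacQ140_2M and LacQ140, 181 to 249 genes were called with 1 LacQ140_2M library left out, and no LacQ140 library was left out. Leaving out libraries in cortex and between sexes, and splitting by sex (2043 genes in females, 1048 in males), were chosen after seeing the data. The causes of these shifts were not tested.

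Replicate numbers did not pair the mice. Over 9 same-numbered pairs the correlation of deviations ran from -0.152 to 0.507, and 1 pair correlated best with its own number. With the replicate block the counts were 1364 for LacQ140_2M against WT, 14 for IPTG, 107 between ages, 32 between sexes and 21 in cortex. Among the named genes called against WT, against LacQ140, at 6 months, between ages or in cortex, none changed direction in that comparison under the settings run for it. Of 59 named genes, 6 lost their call against WT under another setting (among them *Cacna2d1*, *Dlx6*, *Egr2*, *Egr3* and *Grik4*), and 7 when 1 library was left out (among them *Cacna2d1*, *Chrm4*, *Dlx6*, *Egr2*, *Egr3* and *Gpr55*). Against LacQ140 the calls of *Arpp21* (without LacQ140_2M female 2) and *Gabrd* (without male 2) were lost. At levels under 1 CPM, such as those of *Wt1* in WT, the depth limits the precision of a fold.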
